A study of Mus musculus with 12 samples.

Results

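Replication-dependent histone genes were taken as every row of the count table whose symbol begins with Hist1h, Hist2h, Hist3h or Hist4h, which gave 68 of 24062 genes. They comprised 6 genes of the linker histone H1 and 62 of the core histones, namely 18 of H2A, 19 of H2B, 12 of H3 and 13 of H4. Of the 68, 54 lie in the Hist1 cluster on chromosome 13, 10 in Hist2, 3 in Hist3 and 1 in Hist4. Whole hearts of 12 mice were sequenced, 1 library per mouse and 3 mice per group. The adult groups, at 2 months of age, were Lemd2 WT and Lemd2 KI/KI, the latter homozygous in all cells for the point mutation c.T38>G in the gene for the nuclear envelope protein LEMD2. The neonatal groups, at postnatal day 1 (P1), were Lemd2-floxed mice, with loxP sites around the first exon of Lemd2 and no Cre, and Lemd2 cKO mice, which add a Myh6-Cre transgene. Myh6-Cre acts in cardiomyocytes, so the other cells of a cKO heart keep Lemd2, and the transgene itself is carried by the cKO mice alone.

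The core histones H2A, H2B, H3 and H4 form the nucleosome, and H1 binds the DNA where it enters and leaves. Replication-dependent histone genes are transcribed in S phase, when new DNA has to be packed, and their mRNAs normally end in a conserved stem-loop in place of a poly(A) tail. SLBP binds that stem-loop, and a cut made just after it, guided by the U7 small nuclear RNA, forms the mRNA end. Some of these genes are also known to give polyadenylated transcripts in cells that have stopped dividing. The libraries were made from polyA RNA, so the counts below are of the histone transcripts that this selection retained, and their ratio to total histone mRNA was not measured. In the heart, many cardiomyocytes still divide at P1 and nearly all have left the cell cycle in the adult.

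A perfect stem-loop, read as a 6-base stem with a 4-base loop beginning GG and lying within 150 bases of the stop codon, was present in the GENCODE transcripts of 46 of the 68 genes. The sequences are shown because this element defines the mRNA class, and the genes printed are those the comparisons turn on. Capitals mark the stem and the loop, and the coordinates of the capitals in GRCm38 are chr13:23739512-23739527 for Hist1h1c, chr13:23621782-23621797 for Hist1h1e, chr13:23585531-23585546 for Hist1h2be, chr13:23531458-23531473 for Hist1h4h, chr13:22040966-22040981 for Hist1h4i, chr11:58955172-58955187 for Hist3h2a and chr11:58949349-58949364 for Hist3h2ba. Hist1h1e, Hist1h2be and Hist1h4i are on the minus strand and the other printed genes on the plus strand.
Hist1h1c: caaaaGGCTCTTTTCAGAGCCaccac
Hist1h1e: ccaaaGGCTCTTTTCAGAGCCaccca
Hist1h2be: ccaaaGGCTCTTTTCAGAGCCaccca
Hist1h4h: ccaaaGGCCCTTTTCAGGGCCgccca
Hist1h4i: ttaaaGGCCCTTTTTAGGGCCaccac
Hist3h2a: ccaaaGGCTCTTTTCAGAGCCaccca
Hist3h2ba: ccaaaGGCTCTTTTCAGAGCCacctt
The run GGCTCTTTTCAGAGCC, shared by 5 of these 7 genes, was the most common among all members and was present in 26 of them. The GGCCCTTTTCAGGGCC of Hist1h4h was present in 7 members and the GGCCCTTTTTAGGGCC of Hist1h4i in 2. Hist2h2be and the spliced transcript of Hist1h2bc, both among the most abundant members, held no perfect stem-loop in that window. The annotated transcript ran on for 840 bases after the stem-loop in Hist1h1c, 1153 in Hist1h1e, 1861 in Hist1h2be and 1643 in Hist3h2a, against 46 in Hist1h4h. The RefSeq model of Hist1h1c in GRCm38.p6 spans 725 bases where the GENCODE model has 1560 exon bases, so how much of such a stretch was counted depends on the annotation used for counting.

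Promoters, taken from RefSeq (GRCm38.p6) as 250 bases before to 50 bases after the start, were matched for 62 of the 68 genes, 63 promoters in all. The 120 bases before the start are shown for the linker and Hist3 genes whose levels are compared below. Capitals mark the TATA box TATAAA, the CCAAT box CCAAT, the H1 box AAACACA and the octamer ATTTGCAT, each searched on both strands, and no matches overlapped. The stretches are chr13:23738687-23738806 for Hist1h1c, chr13:23622559-23622678 on the minus strand for Hist1h1e, chr11:58954565-58954684 for Hist3h2a and chr11:58948791-58948910 for Hist3h2ba.
Hist1h1c: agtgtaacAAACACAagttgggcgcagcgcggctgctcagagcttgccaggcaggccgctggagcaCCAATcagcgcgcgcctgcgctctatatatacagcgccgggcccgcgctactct
Hist1h1e: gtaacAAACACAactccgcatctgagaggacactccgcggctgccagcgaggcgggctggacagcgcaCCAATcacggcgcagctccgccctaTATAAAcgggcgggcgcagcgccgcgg
Hist3h2a: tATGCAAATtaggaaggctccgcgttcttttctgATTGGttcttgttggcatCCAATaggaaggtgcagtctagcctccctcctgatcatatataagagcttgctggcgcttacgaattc
Hist3h2ba: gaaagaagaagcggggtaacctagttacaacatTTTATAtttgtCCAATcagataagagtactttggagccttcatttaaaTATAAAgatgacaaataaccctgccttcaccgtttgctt
AAACACA, followed downstream by CCAAT, was present in both linker promoters. It was found in 83.3% of the 6 H1 promoters, against 7.18% of all 32851 promoters. Among core promoters it was found in 11.1% of H2A and 11.8% of H2B, and in no H3 or H4 promoter. CCAAT was present in every H1, H2A, H2B and H3 promoter but in 25% of the 12 H4 promoters, with 37.4% over all promoters. ATTTGCAT was found in 38.9% of the H2A and 41.2% of the H2B promoters against 1.74% of all, and TATAAA in 55.6% of member promoters against 13.6% of all. The promoter of Hist1h4h held none of the 4 motifs in its 250 bases upstream of the start. A match is a description of the letters and shows no binding.

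Library totals ranged from 37063669 to 44789753 counts, so that 3 counts, taken as the floor, corresponded to 0.0599 to 0.0965 CPM (counts scaled to a common library size after TMM normalization over the 12 hearts). This floor covers counting error only. Lemd2 was at 33.2 ± 1.4 CPM in WT, 25.2 ± 0.42 in KI/KI, 24.9 ± 0.54 in floxed and 10.3 ± 3.4 in cKO hearts (mean ± SD, n = 3 in each). Markers of cardiomyocytes were abundant in every heart, with a summed level of 42310 to 94840 CPM. The club cell marker Scgb1a1 was at 95.3 CPM in WT replicate 3, 34.1 in KI/KI replicate 4, 23.1 and 34.4 in floxed replicates 1 and 2 and 12.7 in cKO replicate 4, and between 0 and 2.82 in the other 7 hearts. The alveolar marker Sftpc was at or below 0.339 CPM in all 12. Thymocyte markers, those of an organ rich in dividing cells that adjoins the neonatal heart, summed to at most 2.11 CPM in any heart. The X-inactivation transcript Xist was at 612 CPM in cKO replicate 4 and at 0.17 to 2.02 in the other 11 hearts, and the Y-linked Ddx3y was at 0.0399 CPM in cKO replicate 4 against 96.9 to 194 in the others. Thus 1 library of the cKO group stood apart from the rest in these genes, and the calls in cKO are also given without it.

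The 68 genes held 44217 counts over the 12 hearts, from 2351 to 5048 in a library. Hist1h1c held 30.2% of them, Hist1h2bc 28.1%, Hist2h2be 21.2% and Hist3h2a 9.87%, so 4 genes accounted for 89.4%. No other member reached 3%. In every library 11 of the 68 genes were at 0, and 48 never reached 10 counts. A minimum of 10 counts in 3 of the 12 libraries was met by 14 genes, 4 linker (Hist1h1a, Hist1h1c, Hist1h1d and Hist1h1e) and 10 core. H3 was represented there by Hist1h3d alone and H4 by Hist1h4h and Hist1h4i. The 54 genes under the minimum summed to 71 to 86 counts in a WT heart, 66 to 96 in KI/KI, 53 to 71 in floxed and 80 to 95 in cKO.

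Many histone genes are near-identical copies, and whether reads that match several loci were counted was not given in the sources used here. The share of 75-base windows of a gene's exons that also occur in a transcript of another annotated locus, the length of the reads, had a median of 10.3% in the 14 genes that met the minimum and 47.2% in the 54 that did not. Among the genes at 0 in every library the median was 89%. Hist2h2be had no shared window, Hist3h2a 0.82%, Hist1h1e 5.66% and Hist1h1c 6.66%. Hist1h3d had 22.1%, Hist1h4i 22.4%, Hist1h2bc 27.1% and Hist1h4h 42.4%. These shares are over GENCODE exons, of 1560 bases in Hist1h1c and 1930 in Hist1h1e. The RefSeq models of these 2 genes span 725 and 782 bases, so the shares could differ over the annotation used for counting. Levels of Hist1h2bc, Hist1h4h, Hist1h4i, Hist1h3d, Hist1h2bg and Hist1h2af are therefore uncertain where shared reads could be split or dropped. In the GENCODE models the exons of Hist1h1e and Hist1h2be share 496 bases on the same strand, and Hist3h2a shares 708 bases with Trim17. Trim17 was between 0.486 and 1.14 CPM in every heart. The RefSeq models of Hist1h1e and Hist3h2a span only 782 and 508 bases, so whether these overlaps entered the counts depends on the annotation used for counting.

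**Figure D1:**
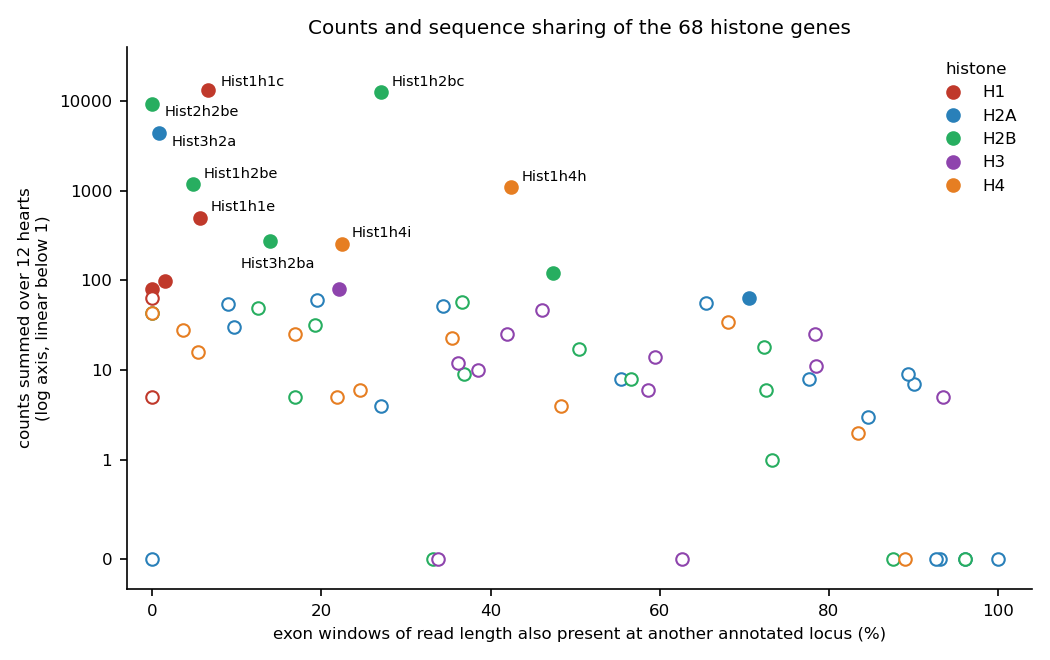
Each circle is 1 of the 68 histone genes. The x axis gives the percentage of its 75-base GENCODE exon windows found at another annotated locus. The y axis gives its counts summed over 12 hearts and is logarithmic above 1 and linear below. Filled circles met the minimum of 10 counts in 3 libraries; most genes at 0 lie at the right, and 3 of the 4 most abundant genes lie below 10% shared.

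Per kilobase of GENCODE exon, the highest level in WT hearts was that of Hist1h2bc, at 29.9 ± 3.7 CPM per kilobase, followed by Hist1h1c at 20.95 ± 0.98 (mean ± SD, n = 3). Hist2h2be at 7.87 ± 1.2 and Hist1h4h at 7.57 ± 0.43 came next and did not differ beyond their spread, and Hist3h2a followed at 3.76 ± 0.18. In floxed hearts Hist1h2bc (12.8 ± 3.2), Hist1h1c (11.7 ± 6.3) and Hist2h2be (9.73 ± 0.9) were within their spread of each other. Hist1h4h was lower there, at 1.35 ± 0.29, and Hist3h2a, at 6.24 ± 0.39, and Hist3h2ba, at 2.08 ± 0.28 CPM per kilobase, lay above it. The annotation used for counting was another than GENCODE, so these lengths carry that uncertainty. RefSeq spans 725 bases for Hist1h1c and 508 for Hist3h2a, against 1560 and 2146 GENCODE exon bases. The order of the genes given here therefore holds for GENCODE lengths only.

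To ask whether the knock-in altered histone transcripts in the adult heart, KI/KI was compared with WT over 14592 tested genes, 10 of them members. By edgeR's quasi-likelihood test with Benjamini-Hochberg adjustment, 0 members had an adjusted p under 0.05, where 0% of all tested genes did. At an unadjusted p under 0.05 there were 5 of 10 members (Hist1h1c, Hist1h1e, Hist1h2bc, Hist1h2be and Hist1h4h), all higher in KI/KI, against 16% of all tested genes. DESeq2 called 1 member, Hist1h1c, where it called 3.56% of genes. The p-values measure the spread among 3 mice per group.

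Hist1h1c encodes the somatic linker histone H1.2. Levels in the 3 WT hearts were 33.3, 30.9 and 33.8 CPM, against 39.0, 42.2 and 39.7 CPM in KI/KI. Every KI/KI heart lay above every WT heart, with a log2 fold change of 0.31 ± 0.07 (SE) and an adjusted p of 0.202 by edgeR, against 0.027 by DESeq2. Hist1h1e, which encodes the somatic linker histone H1.4, was at 1.51, 1.28 and 1.85 CPM in WT and 2.15, 2.40 and 2.53 in KI/KI hearts. Its groups also did not overlap, and its log2 fold change was 0.61 ± 0.20 (edgeR adjusted p = 0.263). The other linker genes were near the floor. Hist1h1a had 4 to 11 counts in an adult heart, Hist1h1b 3 to 5, Hist1h1d 2 to 12, and the testis-specific Hist1h1t 0.

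Among the core genes, Hist1h2bc, which encodes an H2B, was at 29.6, 37.7 and 36.2 CPM in WT and 43.1, 41.4 and 43.9 in KI/KI hearts. The H4 gene Hist1h4h was at 3.70, 3.33 and 3.65 CPM in WT and 5.09, 4.79 and 4.95 in KI/KI hearts. For both genes every KI/KI heart was above every WT heart, and the log2 fold changes were 0.31 ± 0.10 and 0.48 ± 0.12 (edgeR adjusted p = 0.249 and 0.215). Hist1h2be, another H2B gene, was at 3.25 to 3.86 CPM in WT and 4.11 to 5.85 in KI/KI hearts, with a log2 fold change of 0.46 ± 0.17 (edgeR adjusted p = 0.284). The second H4 gene, Hist1h4i, had 55, 13 and 14 counts in the WT hearts and 23, 32 and 40 in KI/KI. WT replicate 1 alone was high, and the groups overlapped.

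Only 2 of the 14 genes outside the Hist1 cluster were tested, and both lay on the other side of 0. Hist2h2be, an H2B gene of the Hist2 cluster on chromosome 3, was at 17.9, 19.9 and 24.2 CPM in WT and 19.2, 17.7 and 14.5 in KI/KI hearts. Hist3h2a, an H2A gene of the Hist3 cluster on chromosome 11, was at 7.78, 8.52 and 7.92 CPM in WT and 7.78, 5.76 and 6.83 in KI/KI hearts. WT replicate 1 and KI/KI replicate 4 were almost level for Hist3h2a, and the groups of Hist2h2be overlapped. The log2 fold changes were -0.27 ± 0.15 and -0.25 ± 0.13 (edgeR adjusted p = 0.41 and 0.384). In all, the groups of 6 of the 10 tested members did not overlap, 5 higher and 1 lower in KI/KI, where 21.8% of all tested genes had groups that did not overlap. The median log2 fold change was 0.31 over the 8 tested Hist1 genes, of which 7 were positive, and 0.0023 over all tested genes. This division by cluster was chosen after the values were seen.

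**Figure D2:**
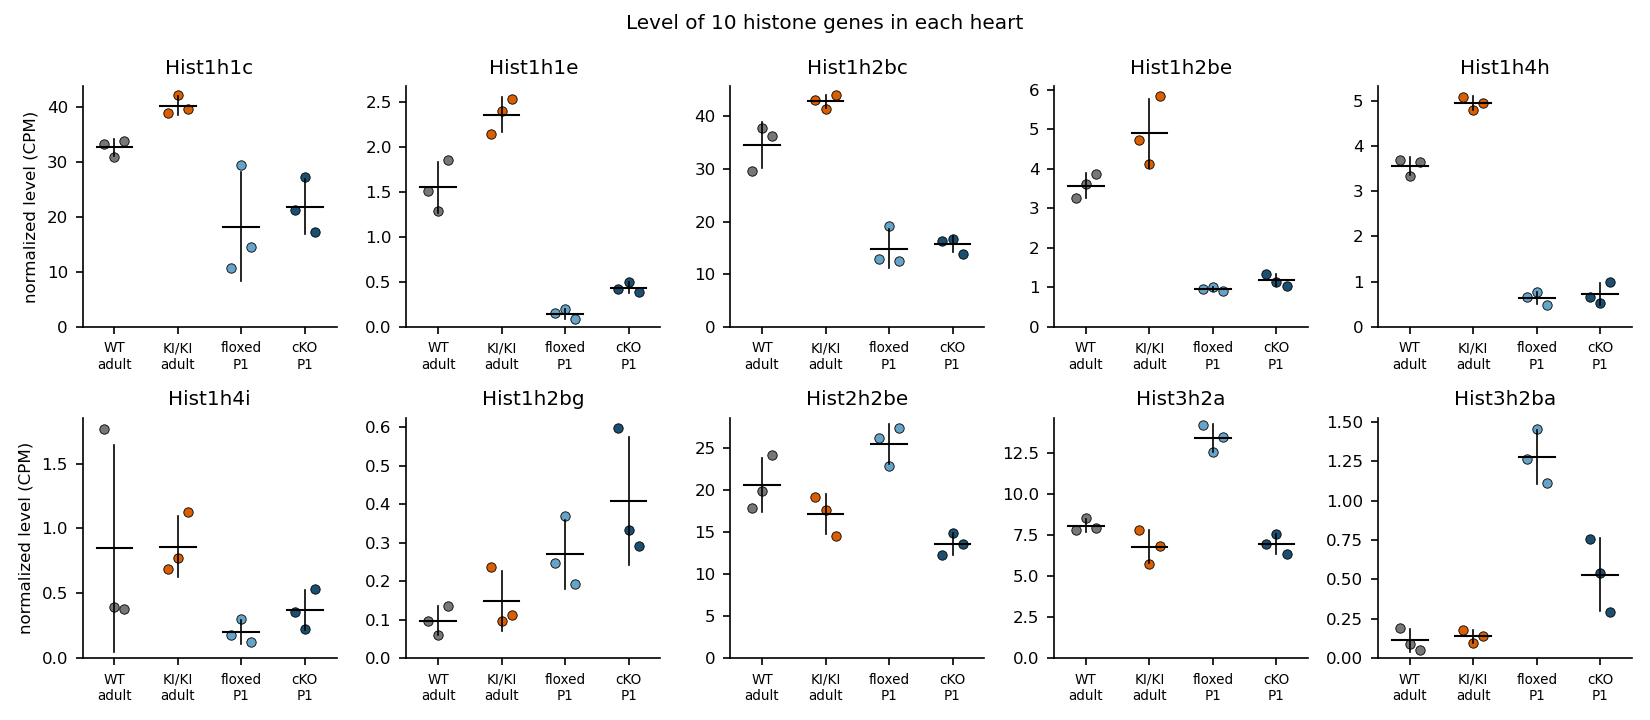
Normalized level in CPM (y axes, each from 0) of 10 histone genes in each of 12 hearts, in 4 groups of 3; points are hearts, horizontal lines group means and vertical lines 1 SD. Hist1h1c runs from 30.9 to 42.2 CPM in the adult groups and from 10.7 to 29.4 in floxed hearts, and all 3 cKO hearts lie below all 3 floxed hearts for Hist2h2be and Hist3h2a.

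To ask what deletion of Lemd2 in cardiomyocytes did to these transcripts, cKO was compared with floxed hearts at P1 over 15317 tested genes, again with 10 members. Of those 10, 1 rose and 2 fell at an adjusted p under 0.05, where 9.15% of all tested genes rose and 7.31% fell (16.5% in all). At an unadjusted p under 0.05 there were 4, against 34.3%, and 1 call passed 2-fold, against 4.48%. DESeq2 called 3, all lower, where it called 23.8% of genes. The groups of 5 members did not overlap, against 39% of all tested genes. Both genes that fell, Hist2h2be and Hist3h2a, lie outside the Hist1 cluster.

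Hist2h2be was at 26.2, 22.9 and 27.4 CPM in the floxed hearts and at 12.3, 14.9 and 13.6 CPM in the cKO hearts. Every cKO heart was well below every floxed heart, with a mean of 13.6 ± 1.3 against 25.5 ± 2.4 CPM (SD). The log2 fold change was -0.91 ± 0.11, a 1.88-fold lower level, with an adjusted p of 0.00688 by edgeR and 2.2e-09 by DESeq2. Hist3h2a was at 14.2, 12.5 and 13.4 CPM in floxed and 6.95, 7.56 and 6.37 CPM in cKO hearts. Its groups were as far apart, with a log2 fold change of -0.94 ± 0.12 (edgeR adjusted p = 0.00767), or 1.92-fold lower. Neither change passed 2-fold. Without cKO replicate 4, the heart that stood apart in Xist, the log2 fold changes were -0.86 and -0.96 (edgeR adjusted p = 0.0171 and 0.0189). Without floxed replicate 1 the log2 fold changes were -0.89 and -0.91 and both adjusted p were 0.0525, just above the threshold, while the whole comparison then gave 68 genes higher and 61 lower in place of 1401 and 1119. Fewer cells of a type and less RNA per cell cannot be told apart in whole hearts.

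Hist3h2ba, the H2B gene next to Hist3h2a, had 56, 67 and 52 counts in floxed and 38, 26 and 12 in cKO hearts, or 1.26, 1.46 and 1.11 against 0.758, 0.542 and 0.292 CPM. The groups did not overlap, but the log2 fold change of -1.25 ± 0.39 missed the threshold in edgeR (adjusted p = 0.0694) and passed it in DESeq2 (0.0309). Without cKO replicate 4 it was -1.61 and passed in edgeR (adjusted p = 0.0474). The 3 tested genes outside Hist1 thus had negative values, with a median of -0.94, and the 7 tested Hist1 genes positive ones, with a median of 0.31, beside -0.0048 over all tested genes. The signs of 3 of those 7 were not stable to leaving out 1 heart. Hist1h1c and Hist1h2bc turned negative without floxed replicate 1 (lowest values -0.015 and -0.035) and Hist1h4h without cKO replicate 6 (-0.10). Some genes under the test's filter did not follow this division, with overlapping groups. Hist1h3d had 8, 9 and 4 counts in floxed and 4, 3 and 5 in cKO hearts. Hist2h2ac had 4, 1 and 9 against 6, 15 and 10.

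Hist1h1e was the one member that rose. It had 7, 9 and 4 counts in the floxed hearts and 21, 24 and 16 in the cKO hearts. The groups did not overlap, and the level was 0.146 ± 0.056 CPM in floxed and 0.436 ± 0.057 in cKO (SD), a log2 fold change of 1.56 ± 0.41 (edgeR adjusted p = 0.0435). At these counts the call was close to the threshold, and the gene passed the test's filter through the cKO hearts alone. DESeq2 gave an adjusted p of 0.0645, the fit with no filter 0.0589, and each of the 6 fits that left out 1 heart between 0.0513 and 0.154, with 0.0831 without cKO replicate 4. Its neighbour Hist1h2be, with which it shares exon bases, was at 0.948, 1.00 and 0.895 CPM in floxed and 1.34, 1.15 and 1.05 in cKO hearts, with a log2 fold change of 0.31 ± 0.24 (edgeR adjusted p = 0.386).

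Hist1h1c was the most variable abundant member at P1. It was at 10.7, 29.4 and 14.6 CPM in floxed and 21.2, 27.2 and 17.2 CPM in cKO hearts. Floxed replicate 2 was higher than every cKO heart and the other floxed hearts were lower, so the groups overlapped and the log2 fold change of 0.26 ± 0.37 gave an edgeR adjusted p of 0.648. Scgb1a1 was raised in both floxed replicate 2 and floxed replicate 1, which had the highest and the lowest Hist1h1c of the group. Hist1h2bc was also highest in floxed replicate 2, at 19.2 CPM against 12.8 and 12.5 in the others and 13.9 to 16.7 in cKO, with a log2 fold change of 0.08 ± 0.19 (edgeR adjusted p = 0.803). Hist1h4h, Hist1h4i and Hist1h2bg had overlapping groups and adjusted p of 0.743, 0.257 and 0.373 by edgeR. Hist1h1a had 1 to 10 counts in a P1 heart, Hist1h1b 3 to 12 and Hist1h1d 3 to 20, and Hist1h1t was at 0 in the floxed hearts and at 2, 3 and 0 counts in cKO.

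The difference between the genotype effects in the cKO and KI/KI models was tested as an interaction over all 12 hearts. By edgeR 0 members had an adjusted p under 0.05, where 2.53% of tested genes did, 4 of the 12 tested had an unadjusted p under it, against 20.3% of genes, and DESeq2 called 2, against 8.8%. Hist3h2a differed by -0.69 ± 0.18 on the log2 scale (edgeR adjusted p = 0.0636, DESeq2 0.0147). For Hist2h2be the difference was -0.64 ± 0.20 (edgeR adjusted p = 0.103, DESeq2 0.0419). Hist1h1e differed by 0.96 ± 0.40 (edgeR adjusted p = 0.21). Without cKO replicate 4, edgeR again called 0 members, and these differences were -0.69, -0.57 and 0.99 (edgeR adjusted p = 0.0869, 0.145 and 0.216).

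**Figure D3:**
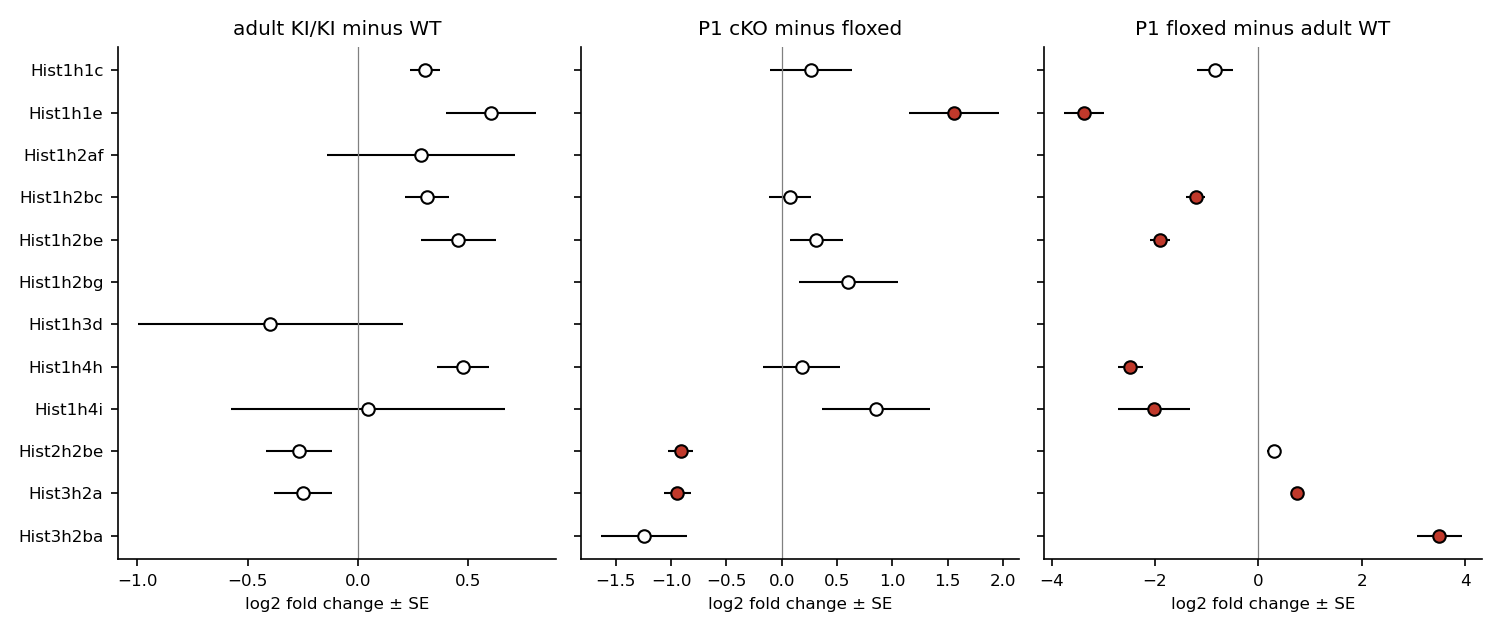
Log2 fold change with its standard error (x axes, with different ranges) of the tested histone genes in 3 comparisons, for genes named on the y axis; filled red points have an edgeR adjusted p under 0.05. Tested Hist1 genes lie mostly right of 0 in the left panel, all right of 0 in the middle panel and all left of 0 in the right panel, while the Hist2 and Hist3 genes lie on the opposite side in each.

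The control groups were set side by side to show how the members differ between the ages. Floxed hearts at P1 were compared with WT hearts at 2 months over 15183 tested genes, 9 of them members, and age, the floxed allele and breeding differ together in this comparison and cannot be told apart. Of the 9 members, 5 were lower and 2 higher at P1 at an adjusted p under 0.05, where 31.4% of all tested genes were lower and 33.3% higher (64.7% in all), and 6 of these 7 passed 2-fold, against 27.2%. Both comparisons above use the same WT or floxed libraries, so its values are not independent of theirs.

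Hist1h1e was at 1.28 to 1.85 CPM in WT and 0.0853 to 0.196 in floxed hearts, a log2 fold change of -3.38 ± 0.38 (edgeR adjusted p = 1.3e-04), or 10.4-fold lower at P1. Hist1h4h was at 3.56 ± 0.20 CPM in WT and 0.635 ± 0.14 in floxed hearts (SD), with a log2 fold change of -2.47 ± 0.24 (edgeR adjusted p = 5.6e-05). No WT heart overlapped a floxed heart for either gene. Hist1h1e passed the test's filter through the WT hearts alone, with 7, 9 and 4 counts in the floxed hearts. Hist1h2be was 3.75-fold lower at P1 (log2 fold change -1.91 ± 0.20) and Hist1h2bc 2.32-fold lower (-1.21 ± 0.18), with edgeR adjusted p of 8.5e-05 and 7.3e-04. Hist1h4i, with 55, 13 and 14 counts in WT and 8, 14 and 6 in floxed hearts, had a log2 fold change of -2.02 ± 0.70 (edgeR adjusted p = 0.0348) that rested partly on WT replicate 1. Without that heart the value was -0.92 and the adjusted p 0.174, and without floxed replicate 1 or 3 the adjusted p was 0.102 or 0.101.

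Hist1h1c was lower at P1 by 0.84 ± 0.35 on the log2 scale and missed the threshold (edgeR adjusted p = 0.0747). Floxed replicate 2, at 29.4 CPM, was close to the lowest WT heart at 30.9. Without it the log2 fold change was -1.36 and the adjusted p 3.2e-04. Hist1h2af, an H2A gene under the test's filter, had 11, 6 and 7 counts in WT and 1, 1 and 0 in floxed hearts, and Hist2h4, an H4 gene of the Hist2 cluster named after its values were seen, had 10, 6 and 7 against 0, 2 and 0.

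Hist3h2ba went the other way. It had 6, 3 and 2 counts in the WT hearts and 56, 67 and 52 in the floxed hearts. The log2 fold change was 3.50 ± 0.44 (edgeR adjusted p = 2.2e-04), or 11.3-fold higher at P1. The gene passed the test's filter through the floxed hearts alone, where it was high, so its call depends on that selection. Its WT counts lay near the floor of 3, which leaves the size of the change uncertain. Hist3h2a was at 7.78 to 8.52 CPM in WT and 12.5 to 14.2 in floxed hearts, with a log2 fold change of 0.74 ± 0.10 (edgeR adjusted p = 3.3e-04). Hist2h2be, at 20.6 ± 3.2 and 25.5 ± 2.4 CPM (SD), had overlapping groups and a log2 fold change of 0.31 ± 0.14 (edgeR adjusted p = 0.0758). The median log2 fold change was -1.96 over the 6 tested Hist1 genes, 0.74 over the 3 tested Hist2 and Hist3 genes and 0.0429 over all tested genes. Genes under the test's filter broke this division. Hist1h2bg had 3, 2 and 5 counts in WT and 11, 17 and 9 in floxed hearts. With the filter of 10 counts in 3 of 12 libraries it was called higher at P1 (1.42, edgeR adjusted p = 0.0419). It met that filter through P1 hearts alone. With no filter Hist2h4 (-3.73, edgeR adjusted p = 0.00736) and Hist2h2bb (-2.60, 0.0157) were called lower. Among the 9 tested members the groups of 8 did not overlap, against 70.8% of all tested genes.

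The linker genes were set against the core genes by summing the CPM of the 4 linker and 10 core genes that met the minimum. These sums carry no test, since their members were chosen with results known. The linker sum was 35.4, 32.4 and 35.9 CPM in WT and 41.5, 45.1 and 42.6 in KI/KI hearts. The core sum was 65.0, 74.0 and 76.7 CPM in WT and 81.4, 75.1 and 78.1 in KI/KI. The linker sums of the adult groups did not overlap and the core sums did. As a share of both, H1 made up 35.3%, 30.4% and 31.9% in WT and 33.8%, 37.5% and 35.3% in KI/KI hearts, which overlapped.

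At P1 the linker sum was 11.1, 29.8 and 15.0 CPM in floxed and 22.2, 28.1 and 18.0 in cKO hearts, and these overlapped. The core sum was 56.7, 58.7 and 56.3 CPM in floxed and 39.4, 42.0 and 37.2 in cKO hearts, lower in every cKO heart. Within it the means of Hist2h2be (25.5 to 13.6 CPM) and Hist3h2a (13.4 to 6.96) fell. Hist1h2bc, the largest other core gene, did not (14.8 to 15.6). The core sum, on which the linker share also depends, thus fell mainly through these 2 called genes and not through the core genes as a class. The linker share was 16.4%, 33.7% and 21.0% in floxed and 36.1%, 40.1% and 32.6% in cKO hearts, where floxed replicate 2 lay within the cKO range. Hist1h1c held nearly all of the linker sum, and without it and without Hist1h2bc the mean linker share was 4.75% in WT, 7.29% in KI/KI, 0.974% in floxed and 3.54% in cKO hearts. By cluster, the Hist1 genes summed to 74.5 to 80.4 CPM in WT, 95.7 to 99.2 in KI/KI, 26.1 to 51.7 in floxed and 35.0 to 47.1 in cKO hearts. The Hist2 and Hist3 genes summed to 25.9 to 32.1, 21.5 to 27.2, 36.9 to 41.9 and 20.0 to 23.0 CPM in the same order.

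**Figure D4:**
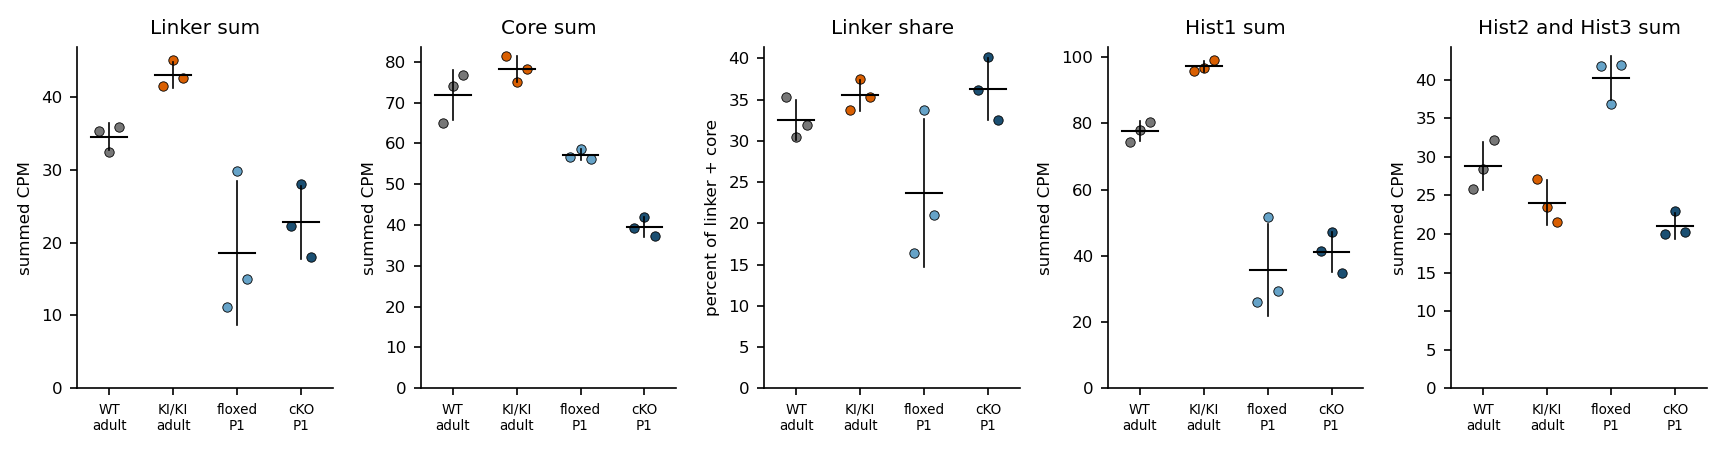
Summed level in CPM of the 4 linker and the 10 core histone genes that met the count minimum, the linker share in percent, and the sums by gene cluster (y axes, each from 0) in each of 12 hearts in 4 groups; points are hearts, horizontal lines group means and vertical lines 1 SD. The core sum is 37.2 to 42.0 CPM in cKO and 56.3 to 58.7 in floxed hearts, a difference mainly in Hist2h2be and Hist3h2a. Floxed replicate 2 stands above the other floxed hearts in the linker sum at 29.8 CPM.

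The genes that make, process and load histones were counted from lists in the same fits. In KI/KI against WT edgeR called 0 of the 115 tested list genes. An unadjusted p under 0.05 was found for 9, against 16% of all tested genes, and DESeq2 called 2, where it called 3.56% of genes. In cKO against floxed, edgeR called 16.5% of all tested genes. The 8 genes of histone transcription had 1 call, Pou2f1 (the octamer-binding factor Oct-1), with a log2 fold change of -0.44 ± 0.12 (edgeR adjusted p = 0.0465). Npat, the S-phase coactivator of histone genes, was at 38.8, 39.3 and 42.3 CPM in floxed and 41.5, 41.6 and 40.6 in cKO hearts. Of 15 genes of histone mRNA processing and decay, Zcchc11, a terminal uridylyltransferase, fell (-0.51 ± 0.10, edgeR adjusted p = 0.0187). Slbp was at 28.3, 17.8 and 31.2 CPM in floxed and 25.8, 25.8 and 33.0 in cKO hearts, and Zfp473, a partner of the U7 particle, at 0.387 ± 0.04 and 0.484 ± 0.049 CPM. Neither passed the test, with edgeR adjusted p of 0.705 and 0.468.

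Of 20 histone chaperones, Nap1l1 rose (log2 fold change 0.33 ± 0.09) and Atrx (-0.39 ± 0.08) and Ubn2 (-0.42 ± 0.11) fell in cKO hearts, with edgeR adjusted p of 0.0473, 0.0239 and 0.0486. These 3 of 20 calls, and those of the transcription and processing lists, were no more than the 16.5% called among all tested genes. Most histone variants encoded outside the clusters make polyadenylated mRNAs. Among the 11 listed here, 3 rose in cKO hearts, against 9.15% of all genes. They were the centromeric H3 variant Cenpa (1.26 ± 0.23, edgeR adjusted p = 0.0161), H2afz (0.76 ± 0.14, 0.0187) and H2afj (0.44 ± 0.10, 0.0295). The damage-associated variant H2afx was at 17.3, 17.0 and 19.8 CPM in floxed and 19.0, 26.5 and 50.3 in cKO hearts. It was high in cKO replicate 6, with overlapping groups and an adjusted p of 0.123 by edgeR and 0.0398 by DESeq2. DESeq2 called 4 of the 11 variants, where it called 23.8% of all genes. The 30 DNA replication genes had positive log2 fold changes in 30 of 30 with a median of 0.55, but edgeR called 0. An unadjusted p under 0.05 was found for 6, against 34.3% of all tested genes, and DESeq2 called 5, where it called 23.8%. The replication genes summed to 736 to 1092 CPM in floxed and 897 to 2292 in cKO hearts, so these sums overlapped and the cKO hearts varied widely. Without cKO replicate 6 the whole comparison gave 1887 genes higher and 1498 lower, in place of 1401 and 1119.

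In floxed P1 against adult WT hearts, all 30 DNA replication genes were called higher at P1, with a median log2 fold change of 1.96 and sums of 216 to 251 CPM in WT and 736 to 1092 in floxed hearts. Over the same hearts 5 of the 6 tested Hist1 genes were called lower at P1, where 31.4% of all tested genes were. Slbp (0.95 ± 0.20, edgeR adjusted p = 0.00369), Npat (0.74 ± 0.08, 7.8e-05) and H2afx (1.19 ± 0.10, 3.3e-05) were higher at P1. Called higher at P1 were 7 of 8 genes of histone transcription, 16 of 20 chaperones, 9 of 15 of mRNA processing, with 3 lower, and 8 of 11 variants, with 3 lower, beside 33.3% higher and 31.4% lower of all tested genes.

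Cell-type markers moved with the groups. In cKO hearts 3 of 8 cardiomyocyte markers were called lower (Pln, Ryr2 and Tnni3, with log2 fold changes of -1.10, -0.82 and -0.48) where 7.31% of all tested genes were, and their sum was 42310 to 46530 CPM against 49130 to 57800. The other 5 were not called, and Actn2 (0.32, edgeR adjusted p = 0.158) and Actc1 (0.22, 0.357) had positive values. Macrophage and leukocyte markers were called higher in 3 of 5 (C1qa, Cd68 and Lyz2), with sums of 93.8 to 137 CPM against 59.3 to 73.5. Endothelial markers had 1 call of 6, Pecam1, and fibroblast markers 2 of 6, Col1a1 and Tcf21, all higher, where 9.15% of all tested genes were. Of those not called, Kdr (-0.07) and Tek (-0.05) and, among fibroblast markers, Pdgfra (-0.16), Dcn (-0.14) and Lum (-0.16) had negative values, so the signs were 4 positive of 6 and 3 of 6. Of the erythroid, thymocyte and lung markers edgeR called 0, with 1 erythroid gene at an unadjusted p under 0.05 that DESeq2 called. Of the 17 list genes called in cKO hearts, 0 remained called without floxed replicate 1 and 2 to 13 without any 1 of the other hearts (10 without cKO replicate 4), with no change of direction. In KI/KI the cardiomyocyte sum was 63040 to 84600 CPM against 84400 to 94840 in WT, so these sums overlapped, and the macrophage and leukocyte sum was 285 to 350 against 170 to 274. Fibroblast markers had positive values in 6 of 6 with a median log2 fold change of 0.50. Their sums of 1717 to 2721 CPM in KI/KI and 1490 to 1704 in WT did not overlap. Of these markers edgeR called 0, with 2 at an unadjusted p under 0.05, against 16% of all tested genes. At P1 against the adult, 7 of 8 cardiomyocyte and 5 of 5 macrophage and leukocyte markers were called lower, where 31.4% of all tested genes were. The part of these shifts in the histone values was not tested.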

How the data were processed

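Polyadenylated RNA from 12 whole hearts was sequenced as single-end reads of 75 cycles. Per the submitters' processing notes and methods, the authors used Trim Galore for trimming, STAR 2.7.2b for alignment to mm10 and SAMtools 1.9 for sorting, and deposited raw HTSeq counts per gene symbol as whole numbers. Strand mode and the treatment of reads matching several loci are not given in the sources used here. The notes also name Bowtie2 2.3.4.3, used for library quality, and DESeq2. No column was left unused.

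The counts were tested in edgeR 4.0.16 under R 4.3.3 (TMM, filterByExpr, quasi-likelihood test with robust dispersion, Benjamini-Hochberg adjustment over all genes tested), each comparison on its own 6 libraries and the interaction on all 12. A call was an adjusted p under 0.05, with changes over 2-fold counted beside it. A standard error is the absolute log2 fold change over the root of its F statistic. No pair of replicates held identical counts. Alternatives were DESeq2 1.42.0, RLE and upper-quartile factors, other filters, all hearts in one fit, a non-robust fit, a replicate block and each heart left out. Stem-loops, exon lengths and shared windows came from GENCODE vM21 (GRCm38). The scripts were tested on simulated counts.

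The members and lists were chosen with earlier results of these data known. Named were all linker genes, core genes called in cKO, the 10 most abundant core genes, the 6 members with the smallest p in KI/KI, the 6 largest called changes between the control groups, up to 4 genes called per list, and Slbp, Zfp473, Npat, H2afx and Lemd2. Lists covered histone transcription, mRNA processing and decay, chaperones, variants, DNA replication, and markers of cardiomyocytes, endothelium, fibroblasts, macrophages and leukocytes, thymocytes, erythroid cells and lung epithelium.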

Additional observations from a re-analysis of the deposited data

How the results depend on the processing

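In KI/KI against WT, DESeq2 called 1 member higher, and the other alternatives called 0 in either direction. In cKO against floxed, the call of 1 member higher became 0 under DESeq2, with no filter and in every fit that left out 1 heart (range 0 to 0). The 2 lower calls became 0 at over 2-fold and without floxed replicate 1, and 3, adding Hist3h2ba, under DESeq2, in the fit of all 12 hearts and without cKO replicate 4 (range 0 to 3 with 1 heart left out). In floxed against WT, the 2 members called higher became 1 at over 2-fold, and ranged from 2 to 4 with 1 heart left out, 4 being without WT replicate 3. The 5 called lower became 8 under DESeq2 and 10 with no filter, which add genes of few counts such as Hist1h2af, Hist1h3f and Hist2h4. DESeq2 called 2 members in the interaction, where edgeR called 0, also without cKO replicate 4 (added after seeing the data).

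Some values near 0 changed sign. With 1 heart left out, the log2 fold change of Hist1h4i in KI/KI (0.05) ranged from -0.31 to 1.14, negative without WT replicate 2, WT replicate 3 or KI/KI replicate 6. In cKO, Hist1h1c (0.26) ranged from -0.015 to 0.79 and Hist1h2bc (0.08) from -0.035 to 0.30, the first negative without floxed replicate 1 and the second without floxed replicate 1 or 3. Hist1h4h (0.18) ranged from -0.10 to 0.38, negative without cKO replicate 6. None of these was called. The alternatives for the list genes were added after seeing the data. The linker share moved to 4.75%, 7.29%, 0.974% and 3.54% in WT, KI/KI, floxed and cKO when the most abundant linker and core genes were left out.

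WT and floxed mice share the numbers 1 to 3, which the labels do not tie to a litter or batch. Hearts with the same number had deviations from their group mean that correlated at -0.251, -0.317 and -0.559. With 3 hearts in a group such deviations are not free of each other, so they cannot settle whether the numbers pair the hearts. With the replicate block 2 members were called higher and 4 lower, the loss being Hist1h4i (adjusted p = 0.0633). Depth limits the 54 genes under the count minimum, all of which the test's filter left out of the main fits. Of these, Hist1h3f, Hist1h3g, Hist2h2bb and Hist2h4 were called lower at P1 with no filter, Hist1h3f and Hist2h4 also by DESeq2.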
